A study of Mus musculus with 40 samples.

Results

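Endothelial cells line the blood vessels that feed a tumor, and 10 of their marker genes are described here in CT26 tumors of treated mice: Pecam1, Cdh5, Kdr, Flt1, Tek, Vwf, Emcn, Plvap, Eng and Esam. The genes were found in the table by symbol, with no threshold on a measured value. All 10 were present among the 54087 genes of the count table, and all 10 passed a filter on low counts that left 14760 genes for testing.

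CT26 is a colon carcinoma line of BALB/c origin. Tumors were grown under the skin of 40 syngeneic BALB/c mice, aged 6 to 12 weeks per the study's methods, from 1000000 cells each. Monoclonal antibodies (mAbs) were injected on days 6, 9 and 12, and RNA of 1 tumor fragment per mouse, collected on day 13, was sequenced in bulk. There were 8 groups of 5 mice. The isotype control was motavizumab of the mIgG2a class. The single treatments were anti-PD-1 FcSilent, which blocks a checkpoint receptor of T cells and is written anti-PD-1 below, anti-TGF-β (clone 1D11), and 2 forms of anti-GARP:TGF-β1 (clone 58A2), an mIgG2a WT form and an FcD form that differs in its Fc part. The other 3 groups received anti-PD-1 together with anti-TGF-β, with anti-GARP:TGF-β1 WT (the WT combination) or with anti-GARP:TGF-β1 FcD (the FcD combination). All mice carried the same line and no mouse was free of a tumor or of an injected mAb. A whole fragment holds tumor cells, leukocytes, stroma and vessels, so that fewer endothelial cells and less RNA per endothelial cell cannot be told apart.

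Vessel growth in tumors is driven mainly by VEGF, which signals through receptors that Kdr and Flt1 encode, while angiopoietins act on the receptor encoded by Tek to steady or loosen the vessel wall. Endothelial cells also respond to ligands of the TGF-β family through a complex that includes endoglin, the product of Eng. GARP, the product of Lrrc32, presents latent TGF-β1 on regulatory T cells, and it is also known on platelets and endothelial cells, which is why Lrrc32 is followed beside the vessel genes.

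The promoters of the receptor genes and of Emcn are shown because ETS factors, which bind a GGAA core, are known regulators of endothelial genes. RefSeq (GRCm38.p6) gave the 250 bases before the start of 5 of the 10 genes. They are printed 5′ to 3′ on the strand of the gene, with GGAA and its reverse complement TTCC in capitals. They lie at chr5:147726012-147726261 (Flt1, minus strand), chr5:75978456-75978705 (Kdr, minus strand), chr4:94739039-94739288 (Tek, plus strand), chr2:32646345-32646594 (Eng, plus strand) and chr3:137340828-137341077 (Emcn, plus strand).
Flt1: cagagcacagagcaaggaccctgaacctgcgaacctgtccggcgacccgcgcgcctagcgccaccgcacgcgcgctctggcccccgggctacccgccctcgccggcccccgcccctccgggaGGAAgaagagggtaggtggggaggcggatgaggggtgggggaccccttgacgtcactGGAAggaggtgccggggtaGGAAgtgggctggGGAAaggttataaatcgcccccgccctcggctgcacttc
Kdr: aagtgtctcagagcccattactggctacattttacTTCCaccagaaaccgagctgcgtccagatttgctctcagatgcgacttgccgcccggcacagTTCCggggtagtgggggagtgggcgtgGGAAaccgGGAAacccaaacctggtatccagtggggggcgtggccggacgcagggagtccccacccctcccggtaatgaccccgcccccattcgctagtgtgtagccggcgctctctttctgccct
Tek: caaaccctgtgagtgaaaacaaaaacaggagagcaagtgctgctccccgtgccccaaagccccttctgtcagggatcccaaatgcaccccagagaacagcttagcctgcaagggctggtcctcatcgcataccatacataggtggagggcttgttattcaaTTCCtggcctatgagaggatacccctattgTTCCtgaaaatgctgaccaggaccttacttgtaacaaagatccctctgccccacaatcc
Eng: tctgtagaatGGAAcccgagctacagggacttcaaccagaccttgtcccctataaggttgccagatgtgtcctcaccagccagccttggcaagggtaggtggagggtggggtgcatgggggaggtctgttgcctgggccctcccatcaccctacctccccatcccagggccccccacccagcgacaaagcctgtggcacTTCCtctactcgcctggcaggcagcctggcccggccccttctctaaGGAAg
Emcn: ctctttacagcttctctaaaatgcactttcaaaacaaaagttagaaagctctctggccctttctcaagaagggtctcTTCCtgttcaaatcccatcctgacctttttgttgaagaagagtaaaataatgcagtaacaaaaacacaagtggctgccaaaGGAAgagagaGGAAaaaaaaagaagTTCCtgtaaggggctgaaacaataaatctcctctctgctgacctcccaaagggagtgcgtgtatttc
The Flt1 and Kdr promoters were rich in CpG, with 23 and 16 CpG and a GC content of 70.4% and 61.6%. Eng had 4 CpG, Tek 2 and Emcn 1. The GC content was 62.4% for Eng, above that of Kdr, 51.2% for Tek and 40.8% for Emcn, against a median of 52.4% over all promoters. GGAA on either strand was present in 5 of 5 promoters, but also in 93.4% of the 32851 promoters of the same length. The longer AGGAAG, searched with its reverse complement CTTCCT and overlapping GGAA, was present in Flt1, Eng and Emcn, so in 3 of 5, by comparison to 29.5% of all promoters. The promoters of Pecam1, Cdh5, Vwf, Plvap and Esam were not analysed here.

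Libraries held between 11931730 and 20680548 counts on genes, with a median of 14030511. Levels are given as CPM, counts per 1000000 after TMM scaling, and mice are named by the library number in their titles, from 41 to 80. Libraries 41 to 60 contained the Y-linked transcript Ddx3y at 6.86 to 33.4 CPM, whereas libraries 61 to 80 contained Xist at 62.7 to 791 CPM and no Ddx3y. Each group had 2 or 3 mice in each of these library parts, and comparisons are therefore also given within them. The labels name separate mice but not cages or days.

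All 10 genes were detected in all 40 mice. Per length of the union of all annotated exons, the order in the isotype control was led by Plvap, which encodes the diaphragm protein of fenestrated capillaries and caveolae, with a mean of 15.9 ± 4.51 FPKM (SD, n = 5). Eng followed at 8.02 ± 0.881 FPKM, Pecam1 at 7.28 ± 0.974, Cdh5 at 6.16 ± 0.591 and Esam at 4.13 ± 1.13. The VEGF receptors were lower, with Flt1 at 1.94 ± 0.25 and Kdr at 1.54 ± 0.158 FPKM, and Emcn was at 1.24 ± 0.273 FPKM. This order depends on the exon unions, which were 13504 bases for Flt1 and 4203 bases for Cdh5. In CPM, Flt1 (26.2) and Cdh5 (25.9) were alike. Tek at 0.349 ± 0.0859 FPKM and Vwf at 0.0845 ± 0.0315 FPKM were the lowest. Lrrc32, at 0.868 FPKM, lay between Emcn and Tek. Tek rested on 7 to 143 counts per library and Vwf on 10 to 215, by comparison to 429 to 4281 for Pecam1, so Tek and Vwf carry the largest counting error.

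By position in GRCm38, Kdr (chr5:75932827-75978458, minus) and Flt1 (chr5:147561604-147726011, minus) share a chromosome, as do Cdh5 (chr8:104101625-104144511, plus) and Plvap (chr8:71497765-71511752, minus). The others are Tek (chr4:94739289-94874976, plus), Eng (chr2:32646595-32682669, plus), Pecam1 (chr11:106654217-106750628, minus), Esam (chr9:37528078-37538319, plus), Vwf (chr6:125546774-125686679, plus) and Emcn (chr3:137341067-137432185, plus). Counts were taken over exons. The last exon of Eng overlaps an exon of Fpgs on the opposite strand by up to 61 bases. Cdh5 overlaps Gm29682 by 4249 bases and Plvap overlaps Gtpbp3 by 1819 bases, both on the opposite strand and without shared exon bases in the annotation used here. The strand setting of the counting is not given in the sources used here.

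**Figure D1:**
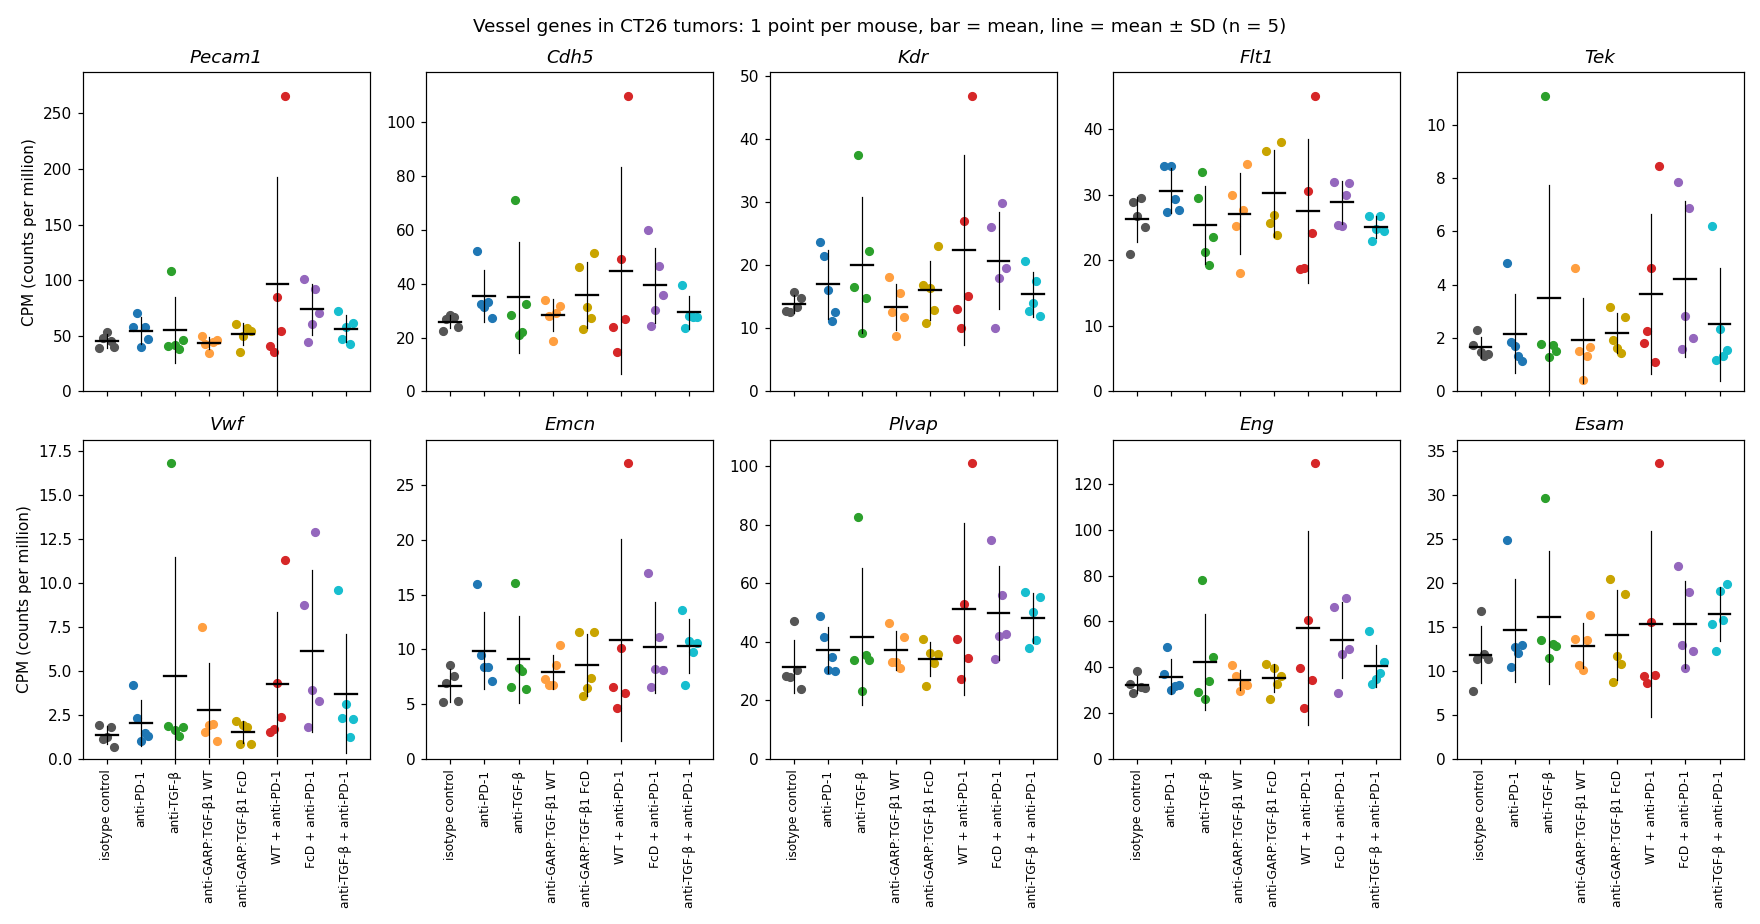
Levels of the 10 vessel genes (CPM, vertical axes) in each of the 40 mice (points) of the 8 treatment groups (horizontal axes), with the group mean and SD (n = 5). Single mice stand far above the rest of their group, such as the Pecam1 value of 266 CPM in the WT combination, and Flt1 spans the narrowest range.

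The VEGF receptor genes behaved unequally across the mice. Kdr, which encodes VEGF receptor 2, the main signalling receptor of endothelial growth, was at 12.7, 12.6, 15.8, 13.4 and 14.8 CPM in the isotype control (mean 13.9 ± 1.42). In the WT combination it was at 13.1, 10, 27.0, 15.1 and 46.9 CPM, so that 2 of 5 mice exceeded every control and 1 lay under all of them. Flt1 encodes VEGF receptor 1, which binds VEGF tightly and also exists as a soluble decoy. Its group means ran only from 25.1 CPM (anti-TGF-β + anti-PD-1) to 30.6 CPM (anti-PD-1), with the isotype control at 26.2 ± 3.37. Over all 40 mice the coefficient of variation of Flt1 was 20.5% and its highest value was 2.51 times its lowest, the smallest spread of the 10 genes.

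Tek and Vwf varied most. Tek, the angiopoietin receptor Tie2, was at 1.73, 2.32, 1.46, 1.34 and 1.39 CPM in the isotype control and at 7.86, 1.58, 2.81, 6.88 and 1.99 CPM in the FcD combination. Vwf encodes von Willebrand factor, the clotting protein stored by endothelial cells and also made by megakaryocytes. It was at 1.92, 1.12, 1.25, 1.81 and 0.693 CPM in the isotype control and at 8.72, 1.81, 3.93, 12.9 and 3.32 CPM in the FcD combination. Of those 5 mice 4 lay above every control, and 1 lay within the control range. The coefficient of variation over the 40 mice was 110% for Vwf and 86% for Tek, and the highest mouse had 24.2 and 25.3 times the level of the lowest.

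The junction and surface genes took a middle place, with coefficients of variation from 38.1% (Esam, an adhesion molecule of tight junctions) to 63.5% (Pecam1). Pecam1 encodes CD31, an adhesion molecule of endothelial contacts that is also present on leukocytes and platelets. It was at 38.9, 48.3, 53.7, 45.6 and 40.2 CPM in the isotype control, at 41.2, 35.5, 85.1, 54.7 and 266 CPM in the WT combination and at 101, 44.0, 60.6, 92.0 and 70.5 CPM in the FcD combination. The FcD combination had 4 of 5 mice above all controls, the WT combination 3 of 5 with 1 mouse under all controls. Cdh5, the VE-cadherin of adherens junctions, was between 22.6 and 28.4 CPM in the isotype control, and the 5 mice of the WT combination were at 24.1, 14.5, 49.1, 26.8 and 110 CPM. Mice 77 and 64 of that group exceeded every control for Cdh5 and mouse 55 lay under all of them. Eng, the gene of endoglin, was at 32.8, 28.7, 38.3, 31.6 and 31.0 CPM in the isotype control, at 39.7, 22.1, 60.5, 34.5 and 129 CPM in the WT combination and at 66.3, 28.9, 45.9, 70.3 and 48.1 CPM in the FcD combination. Again 3 mice of the WT combination and 4 of the FcD combination exceeded every control.

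The isotype control had the lowest group mean for 7 of the 10 genes, and the WT combination the highest for 6. The means of the WT combination rested on mouse 77, and its medians of Cdh5 (26.8 CPM) and Emcn (6.56 CPM) lay under those of the isotype control (27.0 and 6.95 CPM). Between neighbours in these orders of group means, 0 of 70 pairs reached an exact two-sided permutation p under 0.05 (5 mice against 5, smallest p 0.23, where 0.00794 is the smallest possible). Neighbours in a sorted order are the closest pairs by construction, and the order used mean CPM while the test used log2 CPM. Small p values were thus unlikely in advance, and no conclusion is drawn from this test.

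The WT combination was compared with the isotype control to ask whether the vessel genes differ in treated tumors. All 10 had a positive log2 fold change, with a median of 0.75, by comparison to a median of 0.013 and 51.9% positive over all genes tested. No gene passed the adjusted threshold in edgeR's quasi-likelihood test with Benjamini-Hochberg adjustment at 0.05, neither a vessel gene nor any other (0% of 14760). At an unadjusted p under 0.05 there were 6 of the 10 (Pecam1, Eng, Plvap, Vwf, Cdh5 and Kdr), beside 13.2% of all genes in the same direction. With edgeR fitted to these 2 groups alone this count was 3, beside 9.76% of all genes higher in that fit. DESeq2 called 0 of the 10 and 0 genes in all.

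The largest differences of that comparison belonged to Vwf and Tek, the smallest p to Pecam1. The log2 fold change of Pecam1 was 1.09 ± 0.352 (SE; adjusted p = 0.159 by edgeR), that of Vwf 1.64 ± 0.708 (adjusted p = 0.195) and that of Eng 0.82 ± 0.304 (adjusted p = 0.163). Plvap differed by 0.71 ± 0.284 (adjusted p = 0.176) and Cdh5 by 0.79 ± 0.358 (adjusted p = 0.211), and the values of Tek, Emcn and Esam were 1.15, 0.70 and 0.38. Endoglin is the coreceptor for ligands of the TGF-β and BMP family. Flt1 differed by 0.07 ± 0.185, whereas Kdr, its partner among the VEGF receptors, differed by 0.69 ± 0.337. Most of these values rested on 1 mouse. Without mouse 77 the median of the 10 genes was 0.24 and 0 of 10 remained at an unadjusted p under 0.05, with Pecam1 at 0.26, Eng at 0.27 and Vwf at 0.87. Within libraries 41 to 60, where the WT combination had 2 mice, the median difference in log2 CPM was −0.09 with 3 of 10 positive. Within libraries 61 to 80, which hold mouse 77, it was 0.90 with 10 of 10 positive. The difference did not hold in both parts. In a fit over both parts with part as a term, 0 of 10 were called by edgeR, 6 were at an unadjusted p under 0.05 and Pecam1 was at 1.05 (adjusted p = 0.151). The share of all genes at that unadjusted p was not computed for this fit.

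In the FcD combination, again against the same 5 isotype mice, all 10 log2 fold changes were positive with a median of 0.64, by comparison to −0.004 over all genes. Vwf had the largest, 2.17 ± 0.712 or 4.51-fold (adjusted p = 0.225 by edgeR), followed by Tek with 1.36 ± 0.622 (adjusted p = 0.278). Eng differed by 0.68 ± 0.304 (adjusted p = 0.273), Plvap by 0.66 ± 0.285 (adjusted p = 0.261), and Pecam1 by 0.70 ± 0.351 (adjusted p = 0.309). The other 5 genes ran from 0.14 (Flt1) to 0.61 (Cdh5 and Emcn). edgeR called 0 of the 10 and 0% of all genes. At an unadjusted p under 0.05 there were 4 of 10, beside 10.7% of all genes in that direction. With edgeR fitted to these 2 groups alone this count was 8, beside 14.9% of all genes higher in that fit. DESeq2 called 0 of the 10 and 14 genes in all. Unlike the WT combination, this one had a positive difference for 10 of 10 genes in both library parts, with medians of 0.59 and 0.67. Leaving out single mice gave medians from 0.48 (without mouse 44) to 0.75 and counts at an unadjusted p under 0.05 from 1 (without isotype mouse 78) to 6, and without mouse 71 Vwf was at 1.70.

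Tumors given anti-TGF-β + anti-PD-1 had a median log2 fold change of 0.40 against the isotype control, with 9 of 10 positive, and Flt1 was at −0.06. Plvap was at 57.0, 37.8, 50.3, 40.7 and 55.3 CPM, by comparison to 28.3, 27.9, 47.0, 30.5 and 24 in the isotype control, so 3 of 5 mice exceeded every control, and its log2 fold change was 0.61 ± 0.285 (adjusted p = 0.226 by edgeR). Vwf differed by 1.45 ± 0.711 (adjusted p = 0.248) but by 0.73 without mouse 53. The median without that mouse was 0.21, and with single mice left out the count at an unadjusted p under 0.05 ran from 0 (as without isotype mouse 51) to 3. No vessel gene and 0% of all genes were called by edgeR, and 2 of 10 had an unadjusted p under 0.05 beside 8.49% of all genes in that direction. With edgeR fitted to these 2 groups alone this count was 6, beside 11.1% of all genes higher in that fit. DESeq2 called 0 of the 10 and 139 genes in all. The other 7 genes beside Plvap, Vwf and Flt1 ran from 0.15 (Kdr) to 0.62 (Emcn). The medians were 0.45 in libraries 41 to 60 and 0.23 in libraries 61 to 80.

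The single treatments gave smaller or less even values. With anti-PD-1 alone the 10 log2 fold changes ran from 0.15 (Eng) to 0.60 (Vwf), with a median of 0.30. Emcn, which encodes the mucin-like endomucin of veins and capillaries, was at 16, 9.52, 8.42, 8.4 and 7.14 CPM by comparison to 5.19 to 8.61 CPM in the isotype control, a log2 fold change of 0.56 ± 0.346. No gene was called by edgeR (0%), and 0 of 10 had an unadjusted p under 0.05, by edgeR or DESeq2, beside 0.603% of all genes in that direction, and 2 in edgeR fitted to these 2 groups alone, beside 0.713% of all genes higher in that fit. Without mouse 47 the median was 0.15, and within library parts it was 0.50 and 0.04.

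With anti-TGF-β alone the median was 0.44, and Vwf, with 1.77 ± 0.711 (adjusted p = 1 by edgeR), was the only one of the 10 at an unadjusted p under 0.05, beside 1.77% of all genes in that direction. No gene was called by edgeR (0%), and DESeq2 called 0 of 10 and 1 gene in all. Of the 5 Vwf values 4 were between 1.28 and 1.88 CPM, within the control range, and mouse 48 was at 16.8 CPM. Without mouse 48 the Vwf difference was 0.29 and the median of the 10 genes 0.03.

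The anti-GARP:TGF-β1 mAbs given alone had medians of 0.13 (WT) and 0.21 (FcD). In the WT group Pecam1 was at −0.06 and Kdr at −0.05, and Vwf was at 1.03 with a p of 0.158 in edgeR. Mouse 42 of that group had 7.48 CPM of Vwf and the other 4 had 1 to 2.01 CPM. Without mouse 42 the WT median was 0.04, and without mouse 41 the FcD median was 0.12. For both forms, edgeR called 0 genes (0%) and 0 of 10 vessel genes had an unadjusted p under 0.05 in edgeR or DESeq2, beside 0.583% (WT) and 0.264% (FcD) of all genes in the higher direction. With edgeR fitted to the 2 groups alone the counts were 0 (WT) and 1 (FcD), beside 0.854% and 0.585% of all genes higher. All 7 comparisons above share the 5 isotype mice, so their values are not independent of each other.

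**Figure D2:**
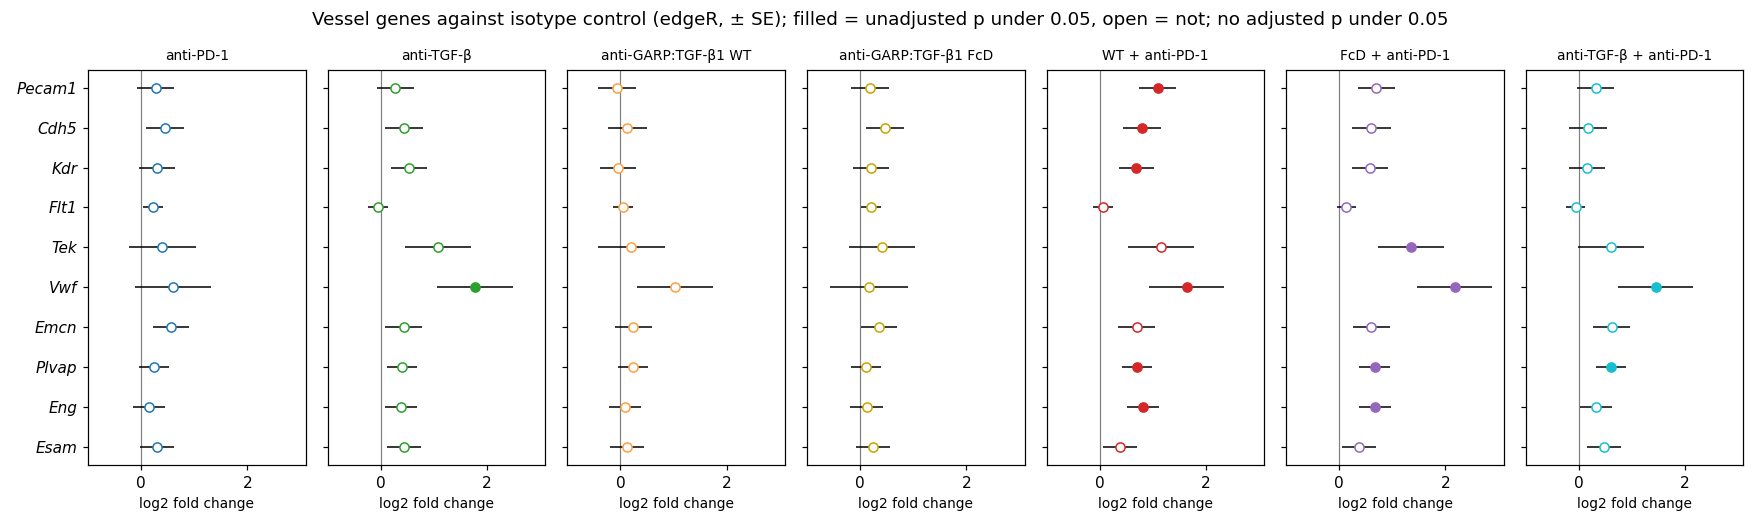
Log2 fold changes of the 10 vessel genes against the isotype control with their standard errors (edgeR, horizontal axis), one panel per treatment (5 mice against 5), with filled points for an unadjusted p under 0.05. The filled points are 6 in the WT combination, 4 in the FcD combination, 2 in anti-TGF-β + anti-PD-1 and 1 in anti-TGF-β, in the fit of all 8 groups (3, 8, 6 and 1 when only the 2 groups compared are fitted), and Flt1 lies between −0.06 and 0.22 in all panels.

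Combinations were next set against anti-PD-1 alone, to ask what the second mAb adds. For the WT combination the median of the 10 log2 fold changes was 0.44, with Pecam1 at 0.82 ± 0.35 (adjusted p = 0.251 by edgeR) and Eng at 0.67 ± 0.303 (adjusted p = 0.267). These 2 genes were the only ones of the 10 at an unadjusted p under 0.05, beside 11.2% of all genes in that direction, and 0% were called. Without mouse 77 the direction of Pecam1 turned, to −0.01, and the median was −0.04. Within libraries 41 to 60 the median was −0.61 with 0 of 10 positive, and within libraries 61 to 80 it was 0.91 with 10 of 10 positive. For the FcD combination the median was 0.36, Vwf was at 1.57 ± 0.69 (adjusted p = 0.458) as the only one of the 10 at an unadjusted p under 0.05 (6.46% of all genes in that direction, 0% called), and the parts gave 0.09 and 0.61. Without mouse 44 that median was 0.21 and without mouse 71 Vwf was at 1.10, and the count at an unadjusted p under 0.05 was 0 in 5 of the 10 fits with 1 mouse left out.

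For anti-TGF-β + anti-PD-1 against anti-PD-1 the median was 0.12, but −0.05 without mouse 53 and 0.24 without mouse 47, with −0.01 and 0.34 within the library parts, and 0 of 10 genes had an unadjusted p under 0.05, beside 7% of all genes in the higher direction. edgeR called 0 of 10 and 0.00678% of all genes. Flt1 was at 26.8, 22.9, 24.7, 26.8 and 24.4 CPM in the combination and at 34.3, 27.4, 34.3, 29.4 and 27.6 CPM with anti-PD-1 alone, so that these groups did not overlap, as was the case for 1.14% of all genes in the lower direction. Its log2 fold change was −0.29 ± 0.185 (adjusted p = 0.417 by edgeR). Against the isotype control, 0 of 10 were free of overlap in the WT and FcD combinations, where 1.35% and 1.96% of all genes were so in the higher direction.

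Addition of anti-PD-1 to each other treatment was also compared. On top of anti-GARP:TGF-β1 WT the median was 0.64, with Pecam1 at 1.16 ± 0.353 (adjusted p = 0.0963 by edgeR), Kdr at 0.75 ± 0.338 (adjusted p = 0.143) and Eng at 0.73 ± 0.303 (adjusted p = 0.12). These 3 were at an unadjusted p under 0.05, beside 16.6% of all genes in that direction. With only these 2 groups fitted the count was 1, beside 12.4% of all genes higher. In the fit of all 8 groups edgeR called 0 of 10 and 0% of all genes, whereas DESeq2 called Pecam1 (log2 fold change 1.17, adjusted p = 0.047) among 332 genes in all. Without mouse 77 the median was 0.04, and the parts gave −0.29 and 0.88. Without mouse 55, the lowest of the WT combination for 7 of the 10 genes, edgeR called Pecam1 (adjusted p = 0.0418) and Eng (adjusted p = 0.0425) among 1707 of 14760 genes in all. On top of anti-GARP:TGF-β1 FcD the median was 0.44 (0.36 and 0.50 within the parts), and Vwf, at 2.003 ± 0.704 (adjusted p = 0.137 by edgeR), was the only one at an unadjusted p under 0.05, beside 13% of all genes in that direction, with 0% called. With only these 2 groups fitted the count was 4, beside 16% of all genes higher. On top of anti-TGF-β the median was −0.04 with 4 of 10 positive, 0 at an unadjusted p under 0.05 (3.96% of all genes, 0% called), and 0.41 without mouse 48.

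The factor that all 4 pairs share, anti-PD-1 against none averaged over the 4 backgrounds with all 40 mice, gave 10 of 10 positive differences with a median of 0.35. Pecam1 had 0.49 ± 0.175 (adjusted p = 0.0949 by edgeR), Plvap 0.37 ± 0.142 (adjusted p = 0.117), Emcn 0.36 ± 0.172 (adjusted p = 0.195), Vwf 0.72 ± 0.345 (adjusted p = 0.198) and Eng 0.35 ± 0.151 (adjusted p = 0.161). These were the 5 of 10 at an unadjusted p under 0.05, beside 13.3% of all genes in that direction, and 0 of 10 were called beside 0.589% of all genes. DESeq2 called 0 of 10 and 860 genes in all. This result rested on single mice in both directions. Without mouse 48, an anti-TGF-β mouse, edgeR called Pecam1 (0.59, adjusted p = 0.0179), Vwf (1.09, adjusted p = 0.0174), Plvap (0.47, adjusted p = 0.0158) and Eng (0.43, adjusted p = 0.0369) among 2243 of 14760 genes in all, and without mouse 55 it called Pecam1 (adjusted p = 0.0491) among 692. Without mouse 77, 2 of 10 were at an unadjusted p under 0.05. The medians within the parts were 0.18 and 0.35.

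Averaged in the same way over mice with and without anti-PD-1, Vwf differed by 1.31 ± 0.495 for anti-TGF-β (adjusted p = 0.268 by edgeR) and by 1.04 for anti-GARP:TGF-β1 WT (adjusted p = 0.784). It was the only one of the 10 at an unadjusted p under 0.05 in each, beside 6.49% and 4.26% of all genes in that direction (0.00678% and 0% called). Without mouse 48 the anti-TGF-β value of Vwf was 0.57 with 0 of 10 genes at an unadjusted p under 0.05, and without mouse 42 the WT value was 0.65. For the FcD form 0 of 10 were so, beside 1.33% of all genes, with 0% called. In edgeR fitted to the groups compared alone 4 were so, but the share of all genes in that fit was not computed. A test of any difference among the 8 groups gave an unadjusted p under 0.05 for Pecam1 (adjusted p = 0.175 by edgeR) and Vwf (adjusted p = 0.177), beside 24.7% of all genes, and called 0 of 10 beside 0.0271% of all genes.

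The WT and FcD forms were compared directly. With anti-PD-1, FcD minus WT ran from −0.39 (Pecam1) to 0.53 (Vwf), with a median of −0.07, 0 of 10 at an unadjusted p under 0.05 (smallest p 0.265 by edgeR), and 0.813% of all genes in the higher direction. Without mouse 77 the median was 0.45, and it was 0.66 in libraries 41 to 60 and −0.15 in libraries 61 to 80. Without anti-PD-1 the differences ran from −0.86 (Vwf) to 0.34 with a median of 0.15, which was 0.001 without mouse 41 and 0.24 without mouse 58, and 0 of 10 were at an unadjusted p under 0.05 beside 0.691% of all genes. Neither comparison had a called gene (0%). In the interactions of anti-PD-1 with the WT form, the FcD form and anti-TGF-β, 0 of 10 genes were at an unadjusted p under 0.05 by edgeR, beside 4.3%, 2.45% and 0.752% of all genes in the higher direction, and 0% were called. The smallest was that of Pecam1 for the WT form (0.89 ± 0.495, adjusted p = 0.483 by edgeR), and its difference in log2 CPM was −0.46 in libraries 41 to 60 and positive in libraries 61 to 80. The median of the 10 genes in that interaction was 0.22, and −0.30 without mouse 77. For anti-TGF-β all 10 interactions were negative, from −0.93 to −0.03, with the smallest p at 0.167, and without mouse 48 their median was 0.11.

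A few mice were high for many of the 10 genes at once. Mouse 77 (WT combination) was the highest of the 40 for 8 genes and mouse 48 (anti-TGF-β) for Tek and Vwf. Mouse 77 had 110 CPM of Cdh5, 46.9 of Kdr, 27.0 of Emcn, 101 of Plvap, 129 of Eng, 33.6 of Esam and 45.1 of Flt1. Mouse 48 had 71.0 CPM of Cdh5, 37.4 of Kdr, 11.1 of Tek, 82.7 of Plvap and 78.0 of Eng, but 33.5 CPM of Flt1, less than mouse 47 with 34.3. Mice 44 and 71 (FcD combination) had 101 and 92.0 CPM of Pecam1 and 66.3 and 70.3 CPM of Eng.

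**Figure D3:**
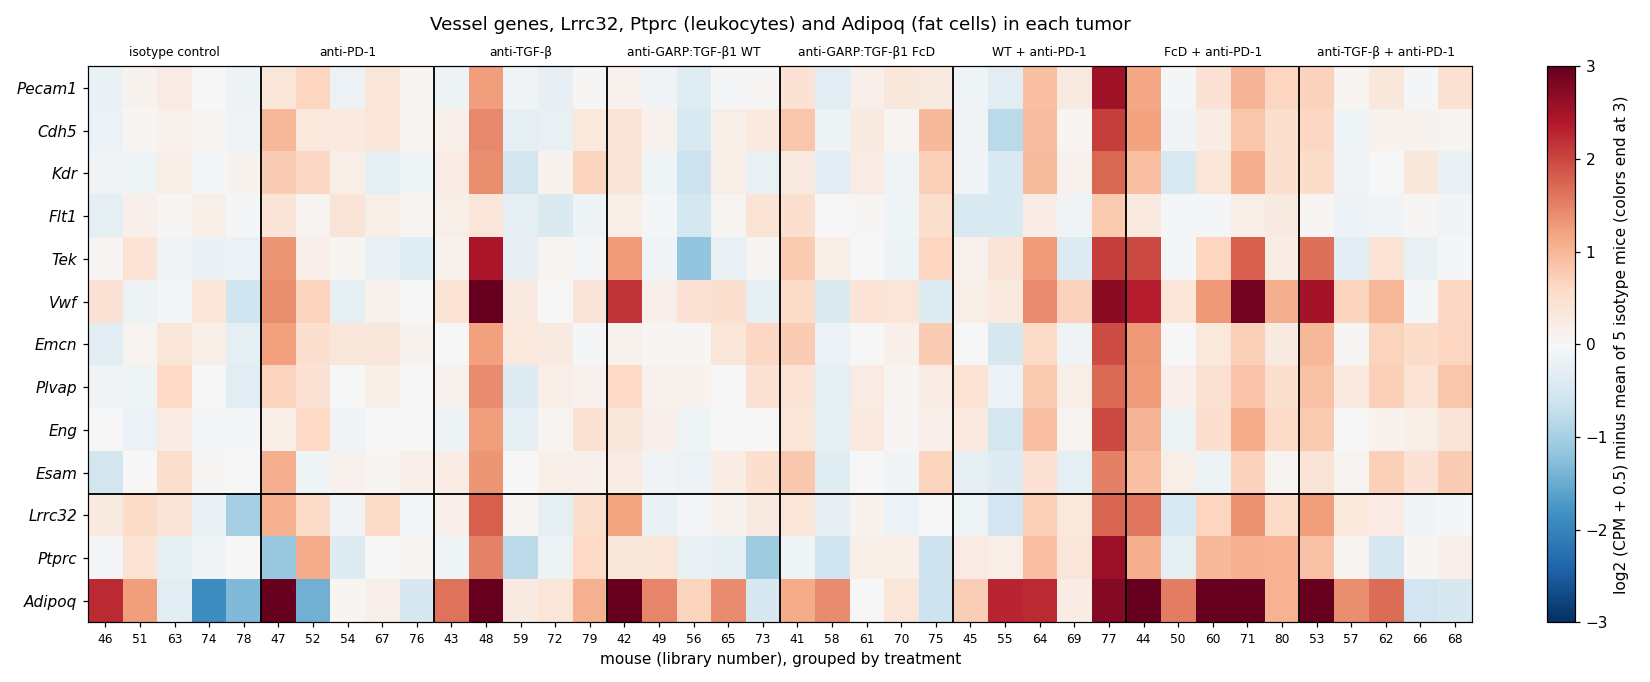
Difference of log2(CPM + 0.5) from the isotype mean (color, ending at 3) for the 10 vessel genes and for Lrrc32, Ptprc and Adipoq (rows) in the 40 mice ordered by group (columns). Mice 77, 48, 44 and 71 show high values over most rows at once, and mice 60 and 80 of the FcD combination also exceed every isotype mouse for Pecam1, Cdh5, Kdr, Vwf, Eng and Ptprc.

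The genes were correlated across mice. Over the 45 pairs of genes in 40 mice, Pearson's r of log2 CPM ran from 0.33 (Flt1 with Vwf) to 0.92 (Pecam1 with Eng), with a median of 0.77, and Spearman's rho from 0.20 to 0.85. The largest Benjamini-Hochberg adjusted permutation p over the 45 pairs was 0.0408 for Pearson and 0.211 for Spearman (100000 resamples). The median r was 0.63 for pairs with Flt1 and 0.80 for the others. Without mice 77 and 48, r ran from 0.15 to 0.86 with a median of 0.67, again with the same pairs at both ends, and without the 2 mice farthest out for each pair it ran from 0.22 to 0.87. With group means removed, Cdh5 followed the mean of the other 9 genes most closely (r = 0.97), then Pecam1 and Plvap (0.92 each), and Flt1 (0.78) and Vwf (0.76) least.

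Each gene was next set against the mean of the 10, again with group means removed from both. The genes whose pattern over the 40 mice was then most like that mean, among 14750 others, were Tie1 (r = 0.95), S1pr1, Lama4, Notch4 and Mmrn2 (0.94 each), Ptprb, Adgrf5 and Shank3 (0.93 each), and Adgrl4 and Nid2 (0.92 each). Tie1 encodes the partner receptor of Tek, S1pr1 a sphingosine phosphate receptor of endothelium, and Lama4 and Nid2 are proteins of the basement membrane. Not every gene known from endothelium followed. Cd34, which marks progenitors and endothelium, had an r of −0.78, Nr2f2, a regulator of venous identity, −0.75, Ecscr −0.61 and Esm1, a marker of growing tip cells, −0.57. Cd34 was at 377 to 919 CPM over the 40 mice, Esm1 at 193 to 555 CPM and Nr2f2 at 35.1 to 95.6 CPM, and the cells that supplied them were not measured here. Vegfa, the main ligand of Kdr, had an r of −0.36.

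Lrrc32, the gene of the GARP mAb's target, ranked 92 in that order with an r of 0.85. It was between 1.66 and 5.75 CPM in the isotype control and highest in mouse 48 (14.4 CPM), mouse 77 (13.8), mouse 44 (12.5), mouse 71 (10.4) and mouse 53 (9.7), which were also the 5 mice with the most Vwf. With group means kept, its r with Cdh5 was 0.79 and rho 0.75 over 40 mice (permutation p = 1e-05 each, the smallest that 100000 resamples can give, adjusted p = 4e-05 and 2.67e-05 over 8 relations). It was 0.71 without mice 77 and 48, and 0.84 and 0.79 within the library parts. With Foxp3, the defining factor of regulatory T cells, r was 0.60 and rho 0.60 (permutation, adjusted p = 0.0001 and 0.00012), 0.55 without mice 48 and 77, and 0.67 and 0.52 within the parts. The relation with Foxp3 was added after the values were seen, and the difference between both correlations was not tested. The log2 fold change of Lrrc32 against the isotype control was 0.60 ± 0.44 in the WT combination and 0.88 ± 0.44 in the FcD combination (adjusted p = 0.306 by edgeR).

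Of the other relations of Cdh5, also with group means kept, that with Rgs5, a pericyte gene, had an r of 0.80 and rho of 0.79 (0.76 without mice 77 and 48, permutation, adjusted p = 4e-05 and 2.67e-05). That with Col1a1, the collagen of fibroblasts, had an r of 0.62 and rho of 0.68 (0.81 and 0.28 within the parts). That with Ptprc, the leukocyte gene of CD45, had an r of 0.54 and rho of 0.36 (permutation, adjusted p = 0.00101 and 0.0376), with 0.39 and 0.70 within the parts, and an r of 0.24 without mice 77 and 48, so the size of r depended on these mice. Adipoq, an adipocyte gene, gave 0.44 and 0.31 (permutation, adjusted p = 0.00671 and 0.0735), Vegfa −0.26 and −0.28 (0.125 and 0.0897), and Ckm, a muscle gene, 0.08 and 0.20 (0.581 and 0.209).

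**Figure D4:**
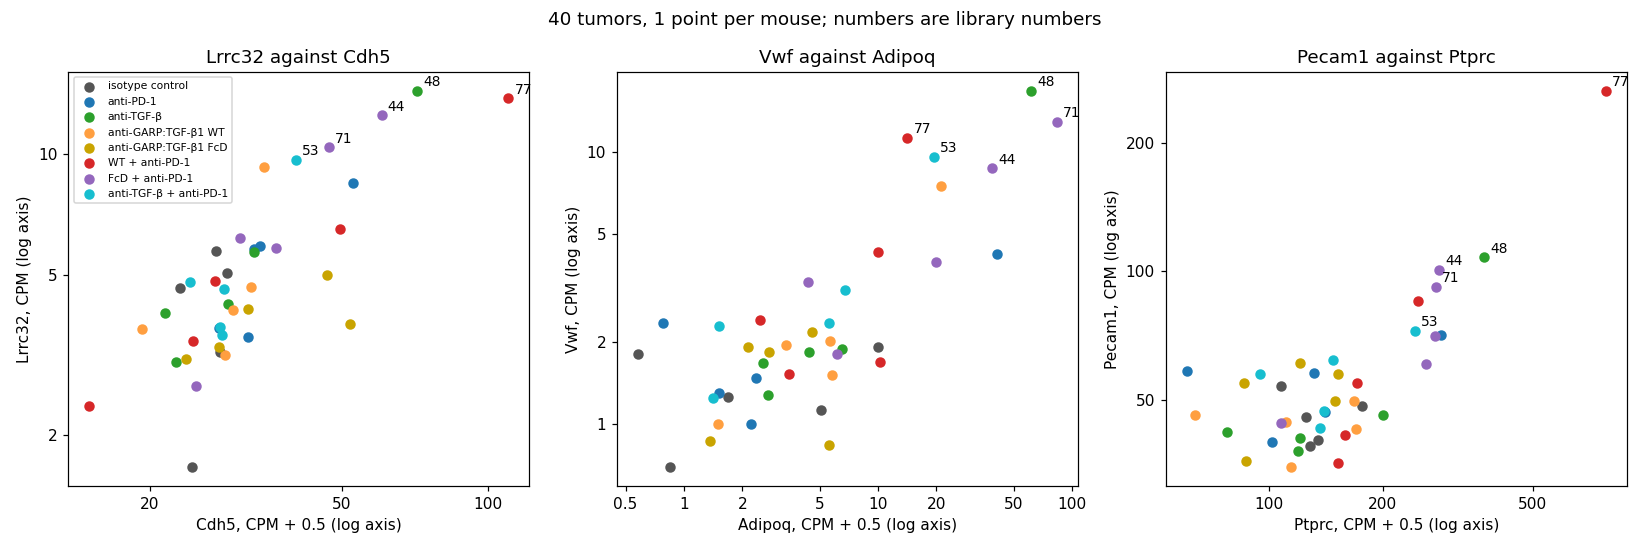
Lrrc32 against Cdh5, Vwf against Adipoq and Pecam1 against Ptprc (CPM on log axes) in 40 mice, with mice 44, 48, 53, 71 and 77 labelled. Lrrc32 climbs with Cdh5 over the whole range, Vwf is highest in mice 48, 71, 77, 53 and 44, which have 13.7 CPM or more of Adipoq, and Pecam1 and Ptprc are both highest in mouse 77, at 266 and 782 CPM.

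Markers of other cells were high in the same mice. Mouse 77 had 782 CPM of Ptprc by comparison to 107 to 176 CPM in the isotype control, and its sum over 9 leukocyte genes was 2700 CPM, against 546 to 658 in the isotype control and 573 at the lowest of the WT combination. All 9 leukocyte genes were tested, and 5 had an unadjusted p under 0.05 in the WT combination against isotype (median log2 fold change 0.82), 2 in the FcD combination (0.51), 3 in anti-TGF-β + anti-PD-1 (0.47) and 0 to 1 with single mAbs. Of all genes, 13.2%, 10.7% and 8.49% were higher at that p in these 3 combinations. The 8 macrophage genes summed to 2270 to 3630 CPM in the isotype control, 2420 to 11600 in the WT combination and 3580 to 5790 in the FcD combination. Pecam1 is expressed by leukocytes too, and their part in its values was not tested.

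Adipocyte genes were high where Vwf and Tek were high. The 8 genes of that list summed to 75.4 to 209 CPM in the isotype control, 139 to 1260 in the FcD combination (highest in mouse 71), 89.8 to 362 in the WT combination, 101 to 332 in anti-TGF-β + anti-PD-1, 113 to 1070 with anti-TGF-β (mouse 48) and 71.7 to 756 with anti-PD-1 (mouse 47). In the FcD combination 8 of 8 had an unadjusted p under 0.05 against isotype, with a median of 3.13, beside 10.7% of all genes in the higher direction. When the 9 mice above every isotype mouse in adipocyte genes were left out, a choice made after the values were seen, the FcD combination kept 2 mice, its median over the vessel genes was 0.18, and Vwf was at 0.92 and Tek at 0.12. The 9 mice include the 5 with the most Vwf, so that lower values were fixed by this choice and say nothing of the source of the RNA. The median of the WT combination was then 0.24, that of anti-TGF-β + anti-PD-1 0.19 and that of anti-TGF-β 0.03. Fat tissue is known to be rich in capillaries, and its part in these values was not tested. Skin genes, 5 of 7 tested, had 4 at an unadjusted p under 0.05 in the FcD combination and 2 in the WT combination, beside 10.7% and 13.2% of all genes in the higher direction. The highest skin sums were in mouse 71 (41.3 CPM), mouse 52 of the anti-PD-1 group (30.4 CPM) and mouse 77 (27.6 CPM), by comparison to 3.77 to 5.42 CPM in the isotype control. With anti-PD-1 alone all 7 tested genes of skeletal muscle were at an unadjusted p under 0.05 (median 3.15), beside 0.603% of all genes in the higher direction. Their sums were 4.35 to 192 CPM (highest in mouse 52) against 3.85 to 7 CPM in the isotype control.

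Platelet genes bear on Vwf and Pecam1. Of 10 platelet genes only 3 passed the filter, and Gp6 was at 0 in 35 of 40 mice and Gp1bb in all 40. Their sum was 17.5 to 33.6 CPM in the isotype control, 23.1 to 71.8 in the WT combination and 20.5 to 67.5 in the FcD combination. The highest sums of the other groups were 73.6 CPM in mouse 53, 72.8 CPM in mouse 48 and 70.3 CPM in mouse 47, and mice 48 and 53 were among the 5 with the most Vwf. Pf4 ran from 8.55 to 60.9 CPM over the 40 mice and Itga2b from 4.35 to 8.47 CPM, so the high sums were mainly Pf4. The cells that supplied Pf4 were not measured here, and the part of platelets in Vwf was not tested. The 6 red cell genes all had an unadjusted p under 0.05 with anti-TGF-β and in the WT and FcD combinations, with medians of 1.82, 1.93 and 1.93, and their highest sums were 561, 600 and 301 CPM by comparison to 92.1 CPM in the isotype control. Of all genes, 1.77%, 13.2% and 10.7% were higher at that p. The mouse with 600 CPM was mouse 45, which had 41.2 CPM of Pecam1. Prox1, the defining factor of lymphatic endothelium, was at 0 in 20 of 40 mice, and only 4 of 7 lymphatic genes were tested.

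Other vessel genes were grouped by role, and edgeR called 0 genes of these lists in each of the 7 comparisons with the isotype control. Their counts at an unadjusted p under 0.05 stand beside 13.2%, 10.7% and 8.49% of all genes in the higher direction in the WT combination, the FcD combination and anti-TGF-β + anti-PD-1. Among 25 further pan-endothelial genes, 7 had an unadjusted p under 0.05 in the higher direction in the WT combination and 1 in the lower, with a median of 0.51. The higher ones included Clec14a (1.04), Ptprb (1.03), Tal1 (1.00) and Sox18 (0.97), and the lower one was Cd34 (−0.29). In the FcD combination 3 were higher and 1 lower (median 0.44), again Cd34 at −0.26, a count near the share of all genes, and in anti-TGF-β + anti-PD-1 3 were higher (median 0.33), namely Cldn5 (1.01), the claudin of endothelial tight junctions, Egfl7 (0.73) and Ecscr (0.38). Mural cells, the pericytes and smooth muscle around vessels, had medians of 0.61, 0.57 and 0.71 in the WT combination, the FcD combination and anti-PD-1 alone, with 2, 3 and 4 of 13 genes at an unadjusted p under 0.05 (0.603% of all genes in the higher direction for anti-PD-1). With anti-PD-1 the largest mural value was that of Des (2.26), which skeletal muscle also expresses, and mouse 47 had the highest mural sum (402 CPM, group median 246 CPM), while all 7 tested muscle genes were at an unadjusted p under 0.05 in the same comparison.

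Ligands and coreceptors of the VEGF and angiopoietin pathways formed the next list. Of 12 genes, 2 were at an unadjusted p under 0.05 in the WT combination (median 0.31), a share near that of all genes, 2 in the FcD combination (median 0.34), and 2 higher and 1 lower in anti-TGF-β + anti-PD-1 (median 0.03). Those of the WT combination were Angpt2 (0.59), the angiopoietin that loosens vessels, and Nrp1 (1.11), a VEGF coreceptor. Vegfa was at −0.40 in anti-TGF-β + anti-PD-1 (adjusted p = 0.176 by edgeR). Of 16 tested receptors and targets of BMP and TGF-β, 2 were higher and 1 lower in the WT combination (median 0.23) and 4 higher and 1 lower in the FcD combination (median 0.22), and the higher count in the WT combination is no larger a share than that of all genes. Acvrl1, which encodes the endothelial receptor ALK1 that works with endoglin, was at 0.56 in the WT combination.

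Of the Notch genes of vessels, Jag1, a Notch ligand, was at 1.51 in the WT combination (adjusted p = 0.159 by edgeR) and at 1.69 in the FcD combination (adjusted p = 0.225), with 3 and 2 of 10 Notch genes higher and 1 lower in each at an unadjusted p under 0.05, and 0 higher and 1 lower in anti-TGF-β + anti-PD-1. Neither value was called. Of 15 genes of tip cells, 3 were higher and 2 lower at an unadjusted p under 0.05 in the WT combination, 2 and 1 in the FcD combination and 2 and 2 in the TGF-β combination, with medians of 0.08, 0.10 and 0.10. Of 12 genes of capillaries, veins and arteries, 3 were higher and 1 lower, 4 and 1, and 1 and 0, with medians of 0.68, 0.86 and 0.64. The difference between both lists was not tested. The latter list was at 0.72 with anti-TGF-β alone, with 4 of 12 genes at an unadjusted p under 0.05 beside 1.77% of all genes in the higher direction. In that group mouse 48 had a sum of 1420 CPM over the list, against a group median of 811 CPM. The list includes Fabp4, which the adipocyte list also holds, and Cd36 (2.06 in the WT combination), which fat tissue also expresses. Endothelial adhesion molecules of the activated state had a median of 0.81 in the WT combination, with Icam1 at 0.91 and Stab1 at 0.71, genes that macrophages also express. The median of their summed CPM was 692 there and 647 in the isotype control. The members differed in their r with the mean of the 10, with group means removed. It was −0.55 for Sele, −0.39 for Selp and −0.39 for Vcam1, but 0.52 to 0.86 for Ackr1, Icam1, Stab2, Stab1 and Cd200.

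**Figure D5:**
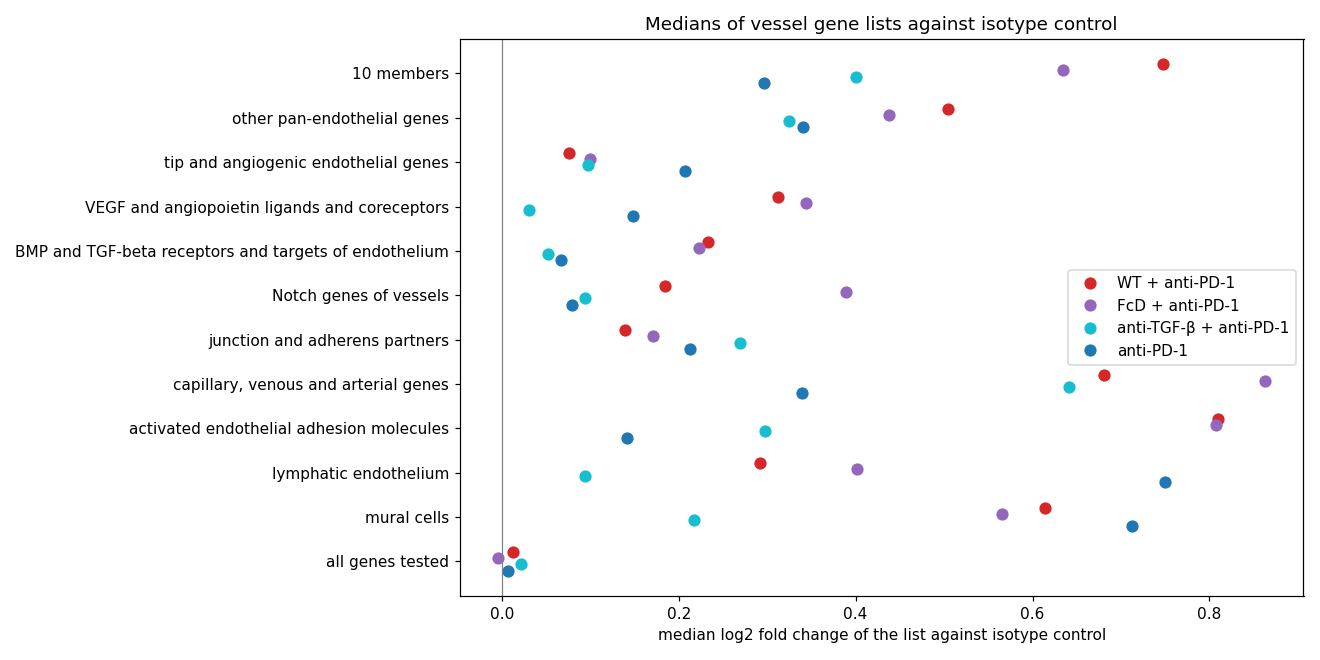
Median log2 fold change against the isotype control (horizontal axis) of each gene list (rows) in anti-PD-1 and the 3 combinations (symbols), with the 10 vessel genes and all genes tested for reference. The 10 genes have medians of 0.75, 0.64, 0.40 and 0.30 in the WT combination, FcD combination, anti-TGF-β + anti-PD-1 and anti-PD-1, while all genes stay near 0.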

How the data were processed

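Bulk RNA of CT26 tumor fragments from 40 mice was sequenced as 100-base paired reads on a HiSeq2000 (TruSeq Stranded mRNA). The deposited values are raw counts per gene, which the authors made with STAR 2.5.3a, SAMtools 1.6 and HTSeq 0.9.1 on GRCm38, per the submitters' processing notes. The annotation release and the strand setting of HTSeq are not given in the sources used here. The authors normalized with DESeq2, but the deposited table holds counts before that step. No column was pooled or left out.

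Groups were taken from the GEO labels, 5 mice each. Genes were filtered with filterByExpr, libraries scaled by TMM, and all 8 groups fitted together in edgeR 4.0.16 (R 4.3.3, limma 3.58.1) with the robust quasi-likelihood test. Contrasts were tested with 2-sided p adjusted by Benjamini-Hochberg over 14760 genes, and the standard error was taken as the log2 fold change divided by the root of F. log2 CPM for correlations and within-part differences used a prior count of 2, and FPKM used the exon union of the GENCODE annotation of GRCm38. DESeq2 1.42.0 and other settings were alternatives. Permutations used SciPy 1.17.1 and figures matplotlib 3.10.9.

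The 10 genes, the gene lists and the relations were chosen with earlier results of these data known. Genes at an unadjusted p under 0.05 are given with their values and the others by examples or ranges. No 2 libraries of a group agreed within sampling noise (80 pairs, chi-square per degree of freedom 5.57 to 217). Depth was 11931730 to 20680548 counts per library, so the precision of a low gene such as Vwf, at a median of 30.5 counts, is limited by counting. Mice are the replicates, and fragments of the same tumor were not compared.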

Additional observations from a re-analysis of the deposited data

Results flagged for a closer look

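Of 80 sets of 5 values (10 genes in 8 groups), 6 had a single mouse whose gap to its nearest neighbour, in log2 CPM, took up more of the whole range than Dixon's critical value of 0.71. Chance alone gives about 1 in 20 such sets, or 4 of 80. In the anti-TGF-β group 5 of the 6 belonged to mouse 48, with Pecam1 at 108 CPM (gap over range 0.814), Tek at 11.1 CPM (0.854), Vwf at 16.8 CPM (0.858), Emcn at 16.1 CPM (0.726) and Esam at 29.6 CPM (0.832). The genes of 1 mouse are not independent of each other. The sixth was Esam in mouse 47 of the anti-PD-1 group, at 24.9 CPM (0.76). On the CPM scale itself, added after the values were seen, 20 of the 80 sets passed, of which 7 belonged to mouse 48, 4 each to mice 47 and 77, 3 to mouse 53 and 1 each to mice 42 and 63, so the count depends on the scale. Mouse 48 also had 371 CPM of Ptprc and 60.9 CPM of Adipoq, and mouse 47 had 59.9 and 40.4 CPM, by comparison to 107 to 176 CPM of Ptprc and 0.0786 to 9.52 CPM of Adipoq in the isotype control. The part of other tissue in these fragments was not tested.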

How the results depend on the processing

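The number of vessel genes called by edgeR was 0 in all comparisons. It kept that value under the other scalings, filters, fits and left-out mice that were tried, except in 2 comparisons. For the WT combination against anti-GARP:TGF-β1 WT it was 1 with DESeq2 and 0 to 2 when single mice were left out, with 2 without mouse 55, in fits that called 332 and 1707 genes in all. For anti-PD-1 averaged over backgrounds it was 0 to 4 when single mice were left out, with 4 without mouse 48 and 1 without mouse 55, in fits that called 2243 and 692 genes in all. The difference of Pecam1 between the WT combination and anti-PD-1 turned from 0.82 to −0.014 without mouse 77, and was at most 1.032 with another single mouse left out. Counts at an unadjusted p under 0.05 moved more, and for comparisons with the isotype control they ranged, with 1 mouse left out, from 0 to 8 in the WT combination and from 1 to 6 in the FcD combination. With the fit restricted to the groups compared, counts in the higher direction were 3, 8 and 6 in the WT, FcD and TGF-β combinations (9.76%, 14.9% and 11.1% of all genes). They were 2 for anti-PD-1 (0.713%), 1 for anti-TGF-β (0.979%), 1 for anti-GARP:TGF-β1 FcD (0.585%) and 0 for its WT form (0.854%). For the combinations against anti-PD-1 they were 0, 2 and 1 (3.54%, 6.99% and 7.04%). Genes called over the whole table differed between tools, with 87 by edgeR and 860 by DESeq2 for anti-PD-1 averaged, and 4 and 1256 for the test across 8 groups. No paired analysis was possible because each mouse has its own library number and no number is shared between groups. A fit with library part as a term called 0 of the 10 genes in all comparisons, with 6, 5 and 1 at an unadjusted p under 0.05 in the WT, FcD and TGF-β combinations against the isotype control. The shares of all genes at that p were not computed for this fit. Depth limits Tek and Vwf most, with medians of 25 and 30.5 counts.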

Other observations

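Several genes of cell division had negative log2 fold changes in the WT and FcD combinations, although no gene was called by edgeR (0% of 14760). Of 7 proliferation genes 3 had an unadjusted p under 0.05 in the lower direction in the WT combination against the isotype control, which were Aurkb (−0.28), Birc5 (−0.37) and Plk1 (−0.34), and 4 in the FcD combination, with medians of −0.20 and −0.24. Of all genes, 7.47% and 5.85% were lower at that p. Mki67 was at 0.09 and −0.02. Over the 40 mice, with group means removed, the median r of the proliferation genes with the mean of the 10 vessel genes was −0.40, by comparison to −0.02 over all genes.

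Of 11 hypoxia and glycolysis genes, 0 in the WT combination and 1 in the FcD combination, Egln3 at 0.85, were at an unadjusted p under 0.05, with medians of 0.13 and 0.04. Of 9 fibroblast genes, 4 were higher at an unadjusted p under 0.05 in the FcD combination (Dcn 1.26, Lum 1.78, Fbln1 1.72 and Postn 1.72), and 0 in the WT combination, with medians of 0.72 and 0.08. Of all genes, 10.7% (FcD combination) and 13.2% (WT combination) were higher at that p. In the direct comparison of the FcD with the WT combination, 0 of 9 fibroblast genes, 0 of 11 hypoxia genes and 0 of 7 proliferation genes were at an unadjusted p under 0.05, with medians of 0.46, −0.11 and −0.04, so a difference between both combinations was not detected in these lists.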
